A study of Mus musculus with 9 samples.

Results

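The nuclear envelope of the testis was described here through 10 genes of 32035 genes in the transcript files. They are the lamins Lmna, Lmnb1 and Lmnb2, the lamin B receptor gene Lbr, the SUN protein genes Sun1, Sun2, Sun3, Sun5 and Spag4, and Dpy19l2. They were chosen by name and not by a rule on their values, but with earlier results of these data known. Whole testes of 9 male C57Bl6/N mice, aged 15 weeks by the labels, were compared, 3 of each genotype. Wild-type (WT) mice carried 2 normal alleles of Kpna6, which encodes importin α7, an adaptor that links nuclear cargo to importin β. Kpna6ΔIBB/ΔIBB mice lacked exon 2 and made a truncated importin α7 without the importin β binding domain, and their males were infertile. Kpna6-/- mice carried a gene trap in intron 1. By the account of the study, a testis-specific first exon gave full-length importin α7 in germ cells of these mice but not in Sertoli cells. The males were fertile, with a sperm count that the study found reduced. Both mutants were constitutive, so the allele was changed in all cells of the animal.

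Lamins form the meshwork under the inner nuclear membrane, and the lamin B receptor anchors that meshwork and heterochromatin to the membrane. SUN proteins span the inner membrane and bind KASH proteins of the outer membrane, and this LINC bridge couples the nucleus to the cytoskeleton. Male germ cells use short lamins and SUN proteins of their own during meiosis and while the spermatid head is shaped, and Dpy19l2 encodes the inner membrane protein that holds the acrosome to the nucleus.

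The libraries held 24973189 to 31629697 estimated counts each. Elongating spermatid markers, such as the protamines, summed to between 65230 and 75450 TPM (the share of a library's transcripts, scaled by length) in WT. That level matched the labelled tissue. None of the 50 markers of 8 testis cell types stood at 0 in any library, which at this depth is a weak check. Kpna6 itself stood at 201, 325 and 334 CPM (counts scaled to the library total and TMM factor) in the WT libraries, 81.2, 85.3 and 81.8 CPM in Kpna6ΔIBB/ΔIBB and 247, 249 and 262 CPM in Kpna6-/-. The gene's total was lower in Kpna6ΔIBB/ΔIBB than in WT (log2 fold change -1.79 ± 0.15 (SE), edgeR quasi-likelihood test, adjusted P=1.94e-05, n=3), whereas the Kpna6-/- libraries lay inside the WT range. The first WT library was the lowest of its group for this gene.

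Transcript structure set the members apart before any comparison. In Lmna, Lmnb2 and Sun3 the transcript that carried most of the gene's TPM began inside the gene, at a first exon in an intron of the longer form. Lmnb2-202 began in intron 4 of Lmnb2-201, 11833 bases downstream of its start, and shared 7 of its 9 exons with it exactly. Lmna-202 began in intron 1 of Lmna-201, 10023 bases downstream, and shared 8 of its 10 exons. Sun3-201 began 9402 bases downstream of Sun3-202. Short lamins of this build are known in germ cells as lamin C2 (from Lmna, in meiosis) and lamin B3 (from Lmnb2, in spermatids), although the annotation used here gives the transcripts no such names.

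The first coding bases are shown here for both Lmnb2 forms and for the short Lmna-202, because they lie in the exon that tells the short lamin transcripts from the long ones. They were read from the GENCODE transcript sequences, all lie on the minus strand of GRCm38, and the capitals mark the start codon. The Lmna-202 stretch is chr3:88493237-88493256, which is the whole coding part of its first exon. The Lmnb2-201 stretch is chr10:80918159-80918218 and the Lmnb2-202 stretch is chr10:80906196-80906255.
Lmna-202: ATGgggaacgcggagggccg
Lmnb2-201: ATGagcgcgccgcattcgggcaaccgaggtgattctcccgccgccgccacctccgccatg
Lmnb2-202: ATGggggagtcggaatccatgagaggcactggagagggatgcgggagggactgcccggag
No coding base of the long forms' first exon was part of the short forms. The open reading frame ran for 1386 bases in Lmna-202 against 1995 in Lmna-201, and for 1422 bases in Lmnb2-202 against 1845 in Lmnb2-201 (stop codon not counted).

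Levels between genes were compared in TPM, which is scaled by transcript length. In WT testis Spag4, which encodes the spermatid SUN protein SUN4, was the highest member with 349 ± 14.1 TPM (SD, n=3), above 98.2% of the genes with counts. It was followed by Sun5 (158 ± 5.42 TPM), which encodes a SUN protein of the junction between sperm head and tail, and by Lmnb2 (135 ± 10.2 TPM) and Sun3 (112 ± 9.46 TPM), which encodes a SUN protein of the spermatid manchette. Sun1, which tethers telomeres to the envelope in meiosis, had 97.8 ± 2.47 TPM and Dpy19l2 had 86.8 ± 2.69 TPM. The other 4 members stood lower, with Lbr at 28.4 ± 3.41 TPM, Sun2 at 18.4 ± 1.23 TPM, Lmna at 15.5 ± 0.474 TPM and Lmnb1 at 10.1 ± 1.38 TPM. No 2 members overlapped in WT.

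The order was not the same in Kpna6ΔIBB/ΔIBB. Sun3 moved from the fourth to the sixth place, with 80.2 ± 2.81 TPM, below Sun1 (85.9 ± 7.53 TPM) and Dpy19l2 (85.6 ± 2.21 TPM) by mean, although its libraries overlapped those of Sun1. Sun2 (27.6 ± 2.66 TPM) stood level with Lbr (27.2 ± 5.62 TPM). In this genotype Lmnb2 also overlapped Sun1 and Dpy19l2, Sun1 overlapped Dpy19l2 and Sun2 overlapped Lbr. In Kpna6-/- the order was that of WT, and only Sun5 (143 ± 11.0 TPM) and Lmnb2 (132 ± 9.93 TPM) overlapped. The summed TPM of the spermatid genes Sun3, Sun5 and Spag4 was 5.27, 5.29 and 5.43 times that of Sun1 and Sun2 in the WT libraries, 4.28, 4.14 and 4.31 times in Kpna6ΔIBB/ΔIBB, and 5.36, 5.42 and 5.26 times in Kpna6-/-.

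The first comparison asked how the envelope genes stood in the infertile Kpna6ΔIBB/ΔIBB testis. Of the 10 members, 6 were lower than in WT (Lmnb2, Sun3, Sun5, Spag4, Sun1 and Dpy19l2) and 1 was higher (Sun2), while Lmna, Lmnb1 and Lbr did not pass the test. The test was edgeR's quasi-likelihood test on gene sums over all genes, with an adjusted P under 0.05 as the threshold, and all 10 members passed its filter on low counts. Among 18797 genes tested, 18.9% were lower and 17.7% were higher in this comparison, so calls were common. The median log2 fold change of the members was -0.19, against 0.01 over all genes. Values by library are given in CPM scaled by TMM factors of all 9 libraries, whereas each test took its TMM factors from its own 6 libraries. Whole testis was measured, so fewer cells of a type and less RNA per cell cannot be told apart.

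**Figure D1:**
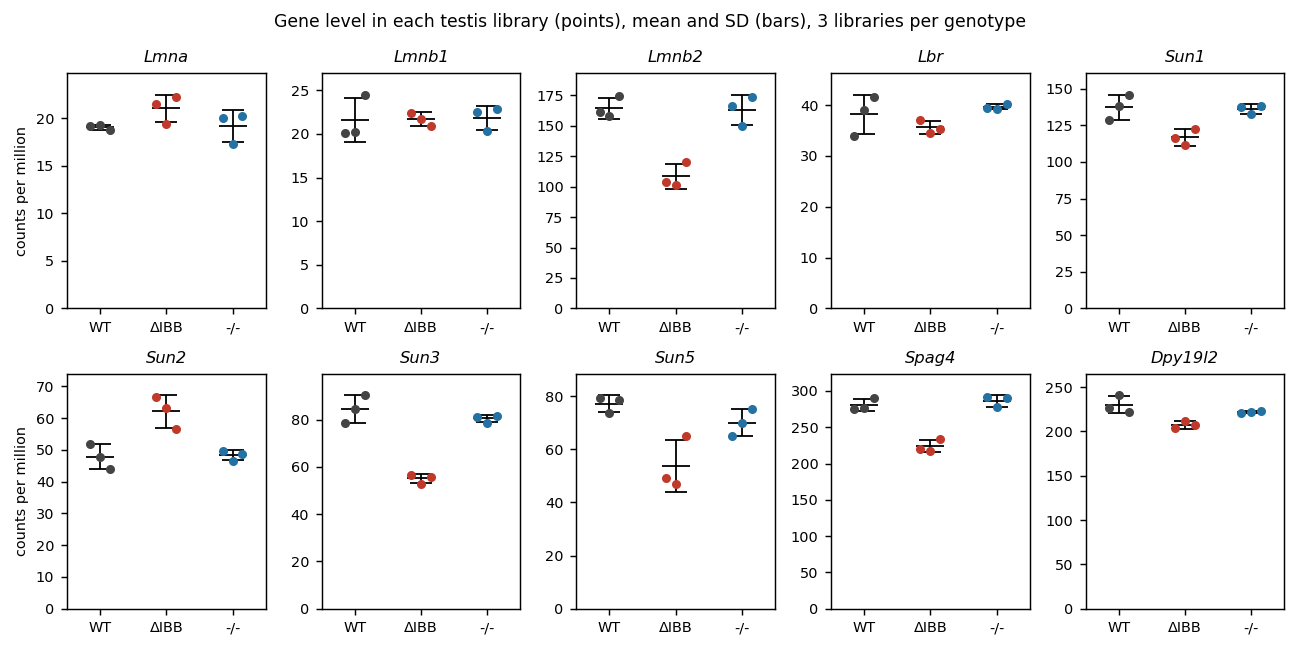
Level of the 10 nuclear envelope genes in CPM (y axis, from 0) in each library, by genotype (x axis: WT, Kpna6ΔIBB/ΔIBB as ΔIBB, Kpna6-/- as -/-). Points are libraries, and bars are the mean and SD of 3. The Kpna6ΔIBB/ΔIBB points of Lmnb2 (102 to 120.1) and Sun3 (52.8 to 56.7) lie below those of both other genotypes, and those of Sun2 (56.5 to 66.7) lie above.

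Among the lamins, Lmnb2 was the member that fell. It stood at 161, 158 and 174 CPM in WT, 104, 102 and 120.1 CPM in Kpna6ΔIBB/ΔIBB, and 166, 149.6 and 174 CPM in Kpna6-/-. The 3 Kpna6ΔIBB/ΔIBB libraries lay below all others, and the other 2 genotypes overlapped. Against WT it fell by 33.8% (log2 fold change -0.59 ± 0.07 (SE), 95% interval -0.74 to -0.45, adjusted P=7.12e-05, n=3).

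Most of Lmnb2 was Lmnb2-202, the short transcript that made up 93.9 ± 1.00% of the gene's TPM in WT. Lmnb2-202 stood at 121, 119.6 and 139 TPM in WT, 81.0, 78.9 and 95.0 TPM in Kpna6ΔIBB/ΔIBB and 127, 113 and 131 TPM in Kpna6-/-. At the transcript level it fell by 37.7% against WT (log2 fold change -0.68 ± 0.09, adjusted P=0.00712, n=3). The long Lmnb2-201, with 5.94, 6.90 and 5.81 TPM in WT and 4.67, 4.89 and 5.76 TPM in Kpna6ΔIBB/ΔIBB, had a log2 fold change of -0.39 ± 0.12 (95% interval -0.68 to -0.10, adjusted P=0.106), and DESeq2 called it lower. The other long coding form, Lmnb2-204, shares its first exon and had higher values in the mutant, with 1.72, 0.146 and 1.13 TPM in WT and 3.13, 3.20 and 2.08 TPM in Kpna6ΔIBB/ΔIBB. All 3 mutant libraries lay above WT, but the difference did not pass the test (log2 fold change 1.37 ± 0.68, 95% interval -0.25 to 3.00, adjusted P=0.283). Summed, both long forms stood at 7.66, 7.05 and 6.93 TPM in WT, 7.80, 8.10 and 7.83 TPM in Kpna6ΔIBB/ΔIBB and 7.21, 7.30 and 7.85 TPM in Kpna6-/-. The long forms together thus gave no lower value in the mutant, a sum that was not tested. How reads were divided between these 2 similar forms carries an error that the transcript tests do not include. The share of Lmnb2-202 was 90.0 ± 0.194% in Kpna6ΔIBB/ΔIBB against 93.9 ± 1.00% in WT and 93.8 ± 0.199% in Kpna6-/-, while that of Lmnb2-204 was 3.04 ± 0.926% against 0.735 ± 0.605% in WT. For Lmnb2-202, with 3 libraries against 3 the exact two-sided permutation P was 0.1, the smallest that this design allows, and it was 0.94 after adjustment over the 75 share tests that were run.

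Lmna, which encodes the A-type lamins, stood at 19.2, 19.3 and 18.8 CPM in WT, 21.5, 19.4 and 22.2 CPM in Kpna6ΔIBB/ΔIBB and 20.1, 17.3 and 20.3 CPM in Kpna6-/-. The Kpna6ΔIBB/ΔIBB libraries were all above those of WT, but 1 of them by a small margin, and the difference did not pass the test (log2 fold change 0.15 ± 0.07, 95% interval -0.01 to 0.31, adjusted P=0.143). Scaled by library size alone, or tested as TPM, Lmna was called higher. The short Lmna-202 held 72.2 ± 2.83% of Lmna TPM in WT, 72.5 ± 6.37% in Kpna6ΔIBB/ΔIBB and 75.1 ± 0.794% in Kpna6-/-. Its level was 10.7, 12.1 and 10.8 TPM in WT against 12.9, 14.6 and 12.8 TPM in Kpna6ΔIBB/ΔIBB (log2 fold change 0.15 ± 0.10, 95% interval -0.09 to 0.39, adjusted P=0.428). The short lamin transcripts of the 2 genes thus had different values in the mutant, a fall for Lmnb2-202 and no called change for Lmna-202. The difference between them was not tested.

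Lmnb1, the B-type lamin of most cell types, stood between 20.1 and 24.5 CPM in WT and between 20.9 and 22.4 CPM in Kpna6ΔIBB/ΔIBB (log2 fold change 0.01 ± 0.09, 95% interval -0.18 to 0.20, adjusted P=0.934). Lbr stood at 33.9, 39.0 and 41.6 CPM in WT, 37.1, 34.5 and 35.3 CPM in Kpna6ΔIBB/ΔIBB and 39.5, 39.3 and 40.2 CPM in Kpna6-/-. The Lbr values of the mutant lay inside the WT range (log2 fold change -0.09 ± 0.07, 95% interval -0.26 to 0.07, adjusted P=0.359). For Lbr, 440 exonic bases overlap Dnah14 on the opposite strand, and the library kit did not mark strand, so reads there cannot be assigned to either gene with certainty. Dnah14 stood at a mean of 49.3 TPM in WT and 51.2 TPM in Kpna6ΔIBB/ΔIBB.

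Of the SUN genes, the spermatid genes and Sun1 fell and Sun2 rose. The fall of Sun1 was the smallest by estimate, but the falls were not tested against each other. Sun3 stood at 78.6, 84.6 and 90.4 CPM in WT, 56.7, 52.8 and 55.9 CPM in Kpna6ΔIBB/ΔIBB and 81.2, 78.7 and 81.7 CPM in Kpna6-/-. All Kpna6ΔIBB/ΔIBB values were below 60 CPM and all others above 75 CPM. The gene fell by 34.6% against WT (log2 fold change -0.61 ± 0.06, 95% interval -0.74 to -0.48, adjusted P=3.61e-05). Nearly all of it was Sun3-201, the transcript with the internal start, with 99.9% of the gene's TPM in WT and a log2 fold change of -0.59 ± 0.06 (adjusted P=0.00353). In 123 exonic bases Sun3 overlaps Gm11992 on the opposite strand, which stood at a mean of 28.4 TPM in WT and 25.0 TPM in Kpna6ΔIBB/ΔIBB.

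Sun5 stood at 79.4, 73.5 and 78.7 CPM in WT, 49.0, 47.1 and 65.0 CPM in Kpna6ΔIBB/ΔIBB and 64.8, 69.9 and 75.1 CPM in Kpna6-/-. The third Kpna6ΔIBB/ΔIBB library was well above the other two and reached the lowest Kpna6-/- library, but it lay below all WT libraries. The gene fell by 30.1% against WT (log2 fold change -0.52 ± 0.10, 95% interval -0.74 to -0.29, adjusted P=0.0026). Its coding transcript Sun5-201 and the non-coding Sun5-203 took 53.7 ± 1.67% and 45.8 ± 2.05% of Sun5 TPM in WT and 53.9 ± 0.924% and 45.2 ± 0.353% in Kpna6ΔIBB/ΔIBB. Neither passed the edgeR test on its own (log2 fold change -0.50 ± 0.13, adjusted P=0.0552 for Sun5-201, and -0.52 ± 0.14, adjusted P=0.0697 for Sun5-203), whereas DESeq2 called both lower, as did edgeR without the third Kpna6ΔIBB/ΔIBB library.

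Spag4 stood at 275, 276 and 291 CPM in WT, 220.2, 218 and 233 CPM in Kpna6ΔIBB/ΔIBB and 292, 277 and 289.9 CPM in Kpna6-/-. The gene fell by 20.0% against WT, and no Kpna6ΔIBB/ΔIBB library reached another genotype (log2 fold change -0.32 ± 0.04, 95% interval -0.41 to -0.23, adjusted P=0.000191). Its 2 main transcripts were the long coding Spag4-201 with 12 exons and the shorter Spag4-206 with 9 exons. Spag4-201 had 157, 157 and 170.4 TPM in WT against 139, 135 and 145 TPM in Kpna6ΔIBB/ΔIBB (log2 fold change -0.32 ± 0.05, adjusted P=0.0102). Spag4-206 had 152, 155 and 162 TPM in WT against 114, 102 and 114 TPM in Kpna6ΔIBB/ΔIBB (log2 fold change -0.61 ± 0.06, adjusted P=0.0029). The 3 transcripts with retained introns did not pass the test, with log2 fold changes between -0.12 and 0.15. The share of Spag4-206 was 39.1 ± 1.25% in Kpna6ΔIBB/ΔIBB and 44.8 ± 0.637% in WT, again with the smallest exact P of 0.1 that the design allows (0.94 adjusted).

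Sun1 stood at 128, 138 and 146 CPM in WT, 116, 111 and 123 CPM in Kpna6ΔIBB/ΔIBB and 138, 132 and 138 CPM in Kpna6-/-. It fell by 14.8% against WT (log2 fold change -0.23 ± 0.06, 95% interval -0.35 to -0.11, adjusted P=0.00794), and the groups did not overlap. The gene had the most transcripts of the members, 20 in the files and 16 that averaged 1 TPM or more in some genotype. The most abundant were Sun1-211 (19.6 ± 1.90 TPM in WT), Sun1-201 (18.5 ± 0.881 TPM) and Sun1-204 (14.7 ± 1.78 TPM), and none of the 14 that passed the filter was called by edgeR. DESeq2 called 3 lower (Sun1-201, Sun1-202 and Sun1-216). The smallest edgeR P was that of Sun1-202, with a log2 fold change of -0.75 ± 0.19 (95% interval -1.20 to -0.30, adjusted P=0.0562).

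Sun2, a LINC protein of most somatic cells, was the member that rose. It stood at 51.7, 47.8 and 43.9 CPM in WT, 66.7, 63.1 and 56.5 CPM in Kpna6ΔIBB/ΔIBB and 49.5, 46.5 and 48.8 CPM in Kpna6-/-. The Kpna6ΔIBB/ΔIBB libraries were the 3 highest (log2 fold change 0.38 ± 0.07, 95% interval 0.22 to 0.54, 30.3% higher, adjusted P=0.00233). The main transcript Sun2-201 had 7.81, 9.10 and 8.92 TPM in WT and 11.6, 14.3 and 11.2 TPM in Kpna6ΔIBB/ΔIBB, which did not pass the edgeR transcript test (log2 fold change 0.41 ± 0.11, adjusted P=0.0584) but was called higher by DESeq2 and with library size alone. The minor Sun2-202 rose from 1.49, 1.12 and 0.533 TPM to 4.03, 2.65 and 3.52 TPM (log2 fold change 1.58 ± 0.37, adjusted P=0.0425), with 1 Kpna6-/- library at 4.05 TPM. That call was lost when any one of 4 libraries was left out (the second WT library or any Kpna6ΔIBB/ΔIBB library) and with the replicate number as a block. In the Kpna6-/- library with 4.05 TPM of Sun2-202, Sun2-201 stood at 5.37 TPM, against 9.51 and 9.47 TPM in the other Kpna6-/- libraries. The division of reads between these similar transcripts was not tested.

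Dpy19l2, which anchors the acroplaxome plate under the acrosome, stood at 227, 241 and 222 CPM in WT, 203, 212 and 207 CPM in Kpna6ΔIBB/ΔIBB and 221, 222 and 224 CPM in Kpna6-/-. With TMM factors it fell by 9.54% (log2 fold change -0.14 ± 0.04, 95% interval -0.24 to -0.05, adjusted P=0.0195). In TPM the same libraries overlapped, with 84.7, 89.9 and 85.9 in WT and 84.2, 88.2 and 84.5 in Kpna6ΔIBB/ΔIBB. The call was lost when the values were scaled by library size alone and in each test of TPM, and also without the second WT or the first Kpna6ΔIBB/ΔIBB library, so the fall of Dpy19l2 depends on the scaling.

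The scaling touched the smaller differences of the other members too. With library size alone the median log2 fold change of all genes was 0.11, and 70.0% of all calls were higher, against 48.4% with TMM factors. Under that scaling 4 members were lower (Lmnb2, Sun3, Sun5 and Spag4) and 2 were higher (Sun2 and Lmna), whereas Sun1 and Dpy19l2 were no longer called. The same 6 members were called by limma on log2(TPM + 1). The falls of Lmnb2, Sun3 and Spag4 and the rise of Sun2 were called under all 14 alternatives to this comparison. Without the first WT library the same 7 members were called as with it.

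**Figure D2:**
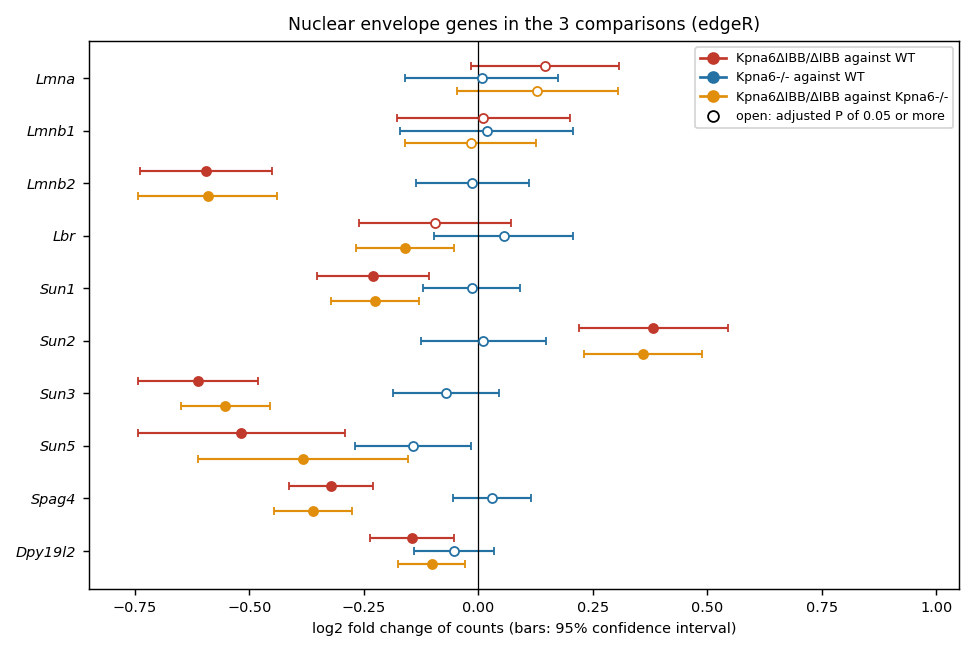
Log2 fold change (x axis) of the 10 genes (y axis) in the 3 comparisons, with 95% confidence intervals as bars; filled points passed an adjusted P under 0.05 in edgeR. The intervals of both Kpna6ΔIBB/ΔIBB comparisons lie below 0 for Lmnb2, Sun3, Sun5, Spag4, Sun1 and Dpy19l2 and above 0 for Sun2, and no point of Kpna6-/- against WT is filled.

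At the transcript level, 45 of the members' 64 transcripts in the files averaged 1 TPM or more in some genotype, and 37 of them passed the filter in this comparison. Of these, 4 were lower (Lmnb2-202, Sun3-201, Spag4-201 and Spag4-206) and 1 was higher (Sun2-202). Over all 47090 transcripts tested, 5.8% were lower and 3.93% were higher. The falls of Lmnb2-202, Sun3-201 and Spag4-206 were called under every alternative tried. DESeq2 called 14 member transcripts.

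The other transcripts of 1 TPM or more did not pass the edgeR test or its filter. Lmnb1-201, Spag4-202, Spag4-205 and Dpy19l2-201 are such transcripts of their genes, and of these Dpy19l2-201 (log2 fold change -0.13 ± 0.04, adjusted P=0.103) was called lower by DESeq2. Of Lbr, Lbr-201 had -0.05 ± 0.09, Lbr-202 had -0.45 ± 0.35 and Lbr-205 had 0.38 ± 0.51, while Lbr-204 and Lbr-206 did not pass the filter. Of Sun1, the coding Sun1-203, Sun1-205, Sun1-206, Sun1-212, Sun1-214 and Sun1-219 lay between -0.96 (Sun1-219) and 0.37 (Sun1-205). The retained-intron Sun1-207, Sun1-208 and Sun1-216 and the non-coding Sun1-220 lay between -0.66 (Sun1-216) and 0.22 (Sun1-220). Of Sun2, the retained-intron Sun2-205 had 1.07 ± 0.30 (adjusted P=0.0716) and was called higher by DESeq2 and by limma, Sun2-203 had 0.03 ± 0.28 and Sun2-208 had -0.12 ± 0.25. Lmnb2-203, Sun1-215, Sun1-217, Sun2-204, Sun2-207 and Sun5-202 did not pass the filter.

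**Figure D3:**
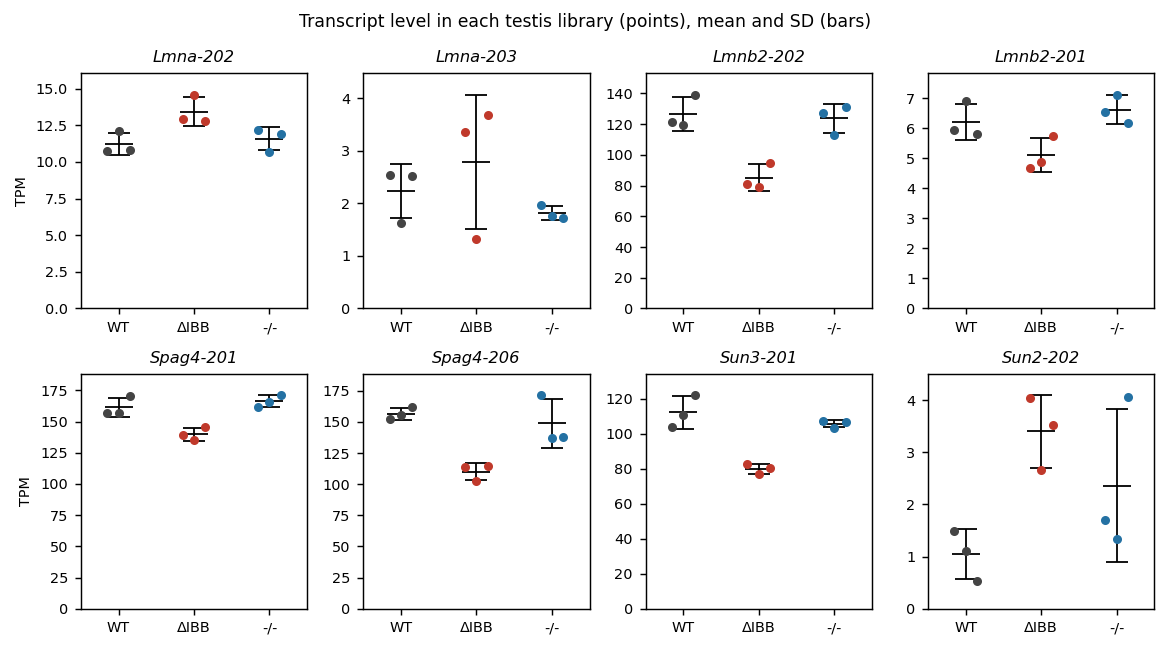
Level of 8 member transcripts in TPM (y axis, from 0) in each library by genotype (x axis, as WT, ΔIBB and -/-), with points for libraries and bars for the mean and SD of 3. Lmnb2-202, Spag4-201, Spag4-206 and Sun3-201 are lower in all Kpna6ΔIBB/ΔIBB libraries, while Lmna-202 and Lmna-203 passed no test.

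The second comparison set the fertile Kpna6-/- testis against WT. None of the 10 members passed the test, where 0.712% of 18681 genes tested were lower and 0.889% were higher, and 1 member, Sun5, had an unadjusted P under 0.05. DESeq2 likewise called none and had 1 such member, and none was called under any alternative. The log2 fold change of Sun5 was -0.14 ± 0.06 (95% interval -0.27 to -0.02, adjusted P=0.272), with 2 Kpna6-/- libraries below all WT libraries. The other members lay between -0.07 (Sun3, 95% interval -0.19 to 0.05) and 0.06 (Lbr, -0.10 to 0.21). For Lmnb2 the interval was -0.14 to 0.11, which leaves out the fall of 0.59 measured in the other mutant, and for Sun2 it was -0.13 to 0.15. Of the 38 member transcripts tested, none was called by edgeR or DESeq2, where 0.0259% of 46346 transcripts were lower and 0.0302% were higher. At an unadjusted P under 0.05 there were none by edgeR and 1 by DESeq2.

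The third comparison set the 2 mutants against each other. It shares the Kpna6ΔIBB/ΔIBB libraries with the first and is not independent of it. Here 7 members were lower in Kpna6ΔIBB/ΔIBB and 1, Sun2, was higher, while 16.8% of 18752 genes tested were lower and 13.5% were higher. Lmnb2 had a log2 fold change of -0.59 ± 0.07 (adjusted P=7.19e-05), Sun3 of -0.55 ± 0.04 (adjusted P=5.5e-06), Spag4 of -0.36 ± 0.04 (adjusted P=4.2e-05) and Sun2 of 0.36 ± 0.06 (adjusted P=0.000798). These 4 were called under all 14 alternatives.

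The other calls between the mutants were less firm. Sun1 (-0.23 ± 0.04, adjusted P=0.00228) was lost in each test of TPM. Sun5 (-0.38 ± 0.10, adjusted P=0.0164) was lost under 8 alternatives, among them DESeq2, library size alone, and leaving out the first or second Kpna6ΔIBB/ΔIBB library or the third Kpna6-/- library. Lbr (-0.16 ± 0.05, adjusted P=0.0276) was lost under 12 and Dpy19l2 (-0.10 ± 0.03, adjusted P=0.0369) was lost or reversed under 12, and leaving out any 1 of the 6 libraries ended the call of Dpy19l2. Without the third Kpna6-/- library or without the second Kpna6ΔIBB/ΔIBB library, 5 members were called in all. Of the 38 transcripts tested, 5 were lower (Lmnb2-202, Lmnb2-201, Sun3-201, Spag4-201 and Spag4-206) and none was higher, against 4.94% lower and 2.41% higher of 46901. Lmnb2-201 had a log2 fold change of -0.49 ± 0.11 here (adjusted P=0.0433). Leaving out any library but the third Kpna6ΔIBB/ΔIBB library ended that call. So did a replicate block, library size alone and limma on log2(TPM + 1). The other long form, Lmnb2-204, was higher by estimate but did not pass the test (1.62 ± 0.67, adjusted P=0.229). Summed, both long forms averaged 7.91 TPM in Kpna6ΔIBB/ΔIBB against 7.45 TPM in Kpna6-/-, which was not tested. Without the first or the second Kpna6ΔIBB/ΔIBB library 3 transcripts were called.

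The promoters of the members were read from RefSeq windows (GRCm38.p6) of 250 bases before and 50 after each gene start. Windows were found for 9 members, 13 windows in all, and Lmna, Lmnb2, Sun1 and Sun3 had more than one. The motifs were searched on both strands. TGACGTCA is the full cAMP response element, bound by CREB and the spermatid factor CREM, and TGACG is its shorter form, which also matches inside it. GTTGCC is the core of the X-box bound by RFX factors, and CCAAT is the box bound by NF-Y. Of all 32851 windows, 1.79% held TGACGTCA, 20.8% held TGACG, 12.5% held GTTGCC and 37.4% held CCAAT.

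Spag4 was the member whose window held TGACGTCA, 37 bases before the RefSeq start. It is shown with the windows of Sun2, the member that rose, and of the internal starts of Lmnb2-202 and Sun3-201, which fell. The runs cover bases upstream of the RefSeq start, 5′ to 3′, with the motifs in capitals. They are chr2:156065093-156065204 (plus strand) for Spag4, chr15:79742537-79742656 (minus strand) for Sun2, chr10:80906413-80906532 (minus strand) for Lmnb2 and chr11:9039592-9039711 (minus strand) for Sun3. The last 30 bases of the Spag4 run lie in the first exon of Spag4-204, a retained-intron transcript that starts earlier than the RefSeq gene.
Spag4: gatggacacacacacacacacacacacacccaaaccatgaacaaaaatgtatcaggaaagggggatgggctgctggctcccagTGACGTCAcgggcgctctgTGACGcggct
Sun2: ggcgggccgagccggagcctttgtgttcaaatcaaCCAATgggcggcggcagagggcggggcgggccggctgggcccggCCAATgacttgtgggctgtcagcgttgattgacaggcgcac
Lmnb2 internal start: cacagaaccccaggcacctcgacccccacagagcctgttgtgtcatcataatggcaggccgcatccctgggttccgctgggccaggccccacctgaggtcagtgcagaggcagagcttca
Sun3 internal start: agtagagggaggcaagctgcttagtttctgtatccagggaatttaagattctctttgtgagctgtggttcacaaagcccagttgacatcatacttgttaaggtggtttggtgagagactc
The Spag4 window held 4 matches to TGACG, of which 2 lie within TGACGTCA, and the Sun2 window held 2 matches to CCAAT. The internal windows of Lmnb2 and Sun3, the upstream windows of Lmnb2 and Lmna and the window of Sun5 held none of these letters. The upstream window of Sun3 and the internal window of Lmna each had CCAAT. Sun1 had TGACG and CCAAT in its first window and CCAAT in its second. Dpy19l2 had TGACG after the start, Lbr had CCAAT at 2 places, and GTTGCC was in none of the 13 windows. A match is a description of the sequence and says nothing of binding in these samples.

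The partners of the members were followed in 4 lists of 48 other genes, all of which passed the filter. In Kpna6ΔIBB/ΔIBB against WT, 18 were lower and 5 higher, beside 18.9% lower and 17.7% higher over all genes tested, and between the mutants 18 were lower and 3 higher, beside 16.8% and 13.5%. In Kpna6-/- against WT none was called by edgeR or DESeq2, with 7 and 5 of them at an unadjusted P under 0.05. With library size alone the counts became 14 lower and 13 higher against WT, and 13 lower and 10 higher between the mutants.

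KASH proteins, the outer-membrane partners of the SUN proteins, had 1 of 6 genes lower and none higher in Kpna6ΔIBB/ΔIBB, with a median log2 fold change of 0.13. The lower gene was Syne3, which encodes nesprin-3 (log2 fold change -0.29 ± 0.07, adjusted P=0.00916), and with library size alone or by limma it was not called, and with library size alone 3 KASH genes were higher. Syne2, the most abundant large nesprin gene, had 0.08 ± 0.05 (adjusted P=0.258), and Ccdc155, which encodes the meiotic partner KASH5 of SUN1, had 0.02 ± 0.05 (adjusted P=0.837). Against Kpna6-/-, Syne1 was higher (0.27 ± 0.09, adjusted P=0.0416) and Syne3 lower (-0.30 ± 0.08, adjusted P=0.0117). The call of Syne1 was lost by DESeq2 and when the first or second Kpna6-/- or the first or the third Kpna6ΔIBB/ΔIBB library was left out. That of Syne3 was lost with library size alone, by limma and without the first Kpna6-/- library.

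Of 20 genes of LEM domain proteins, other lamin-associated proteins and prelamin processing, 6 were lower and 4 higher in Kpna6ΔIBB/ΔIBB, with a median of -0.01. The lower genes with the smallest adjusted P were Tor1aip1, which encodes the lamina-associated protein LAP1 (-0.35 ± 0.05, adjusted P=0.000436), Lemd1 (-0.37 ± 0.06, adjusted P=0.0008) and Banf2, a testis paralogue of the chromatin protein BAF (-0.42 ± 0.09, adjusted P=0.00341). The higher genes led with Tmem43, which encodes the inner membrane protein LUMA (0.42 ± 0.08, adjusted P=0.00302), Tmem201, which encodes SAMP1 (0.27 ± 0.07, adjusted P=0.00843), and Lemd2 (0.23 ± 0.07, adjusted P=0.0214), whose call was lost without the first or second WT or the first or second Kpna6ΔIBB/ΔIBB library. By limma Banf2 and Tmem201 were not called. With library size alone 3 were lower and 8 higher, and without the second WT or the second Kpna6ΔIBB/ΔIBB library 3 were lower and 2 higher. In Kpna6ΔIBB/ΔIBB against Kpna6-/-, 5 were lower and 1, Tmem43, was higher (0.36 ± 0.08, adjusted P=0.0061), with Tor1aip1 at -0.39 ± 0.04 (adjusted P=1.51e-05) Banf2 at -0.49 ± 0.06 (adjusted P=0.000136) and Lemd1 at -0.34 ± 0.05 (adjusted P=0.000485). With library size alone 3 were lower and 6 higher between the mutants.

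Genes of the spermatid head, acroplaxome and head-tail coupling moved one way among those called with TMM factors. In Kpna6ΔIBB/ΔIBB, 11 of 19 were lower than in WT and none higher, with a median of -0.26. With library size alone 11 were lower and 1 higher, and by limma on log2(TPM + 1) 10 were lower and 2 higher. Hook1, which encodes a manchette linker, had -0.47 ± 0.03 (adjusted P=1.02e-05), Pmfbp1, which encodes a head-tail coupling partner of SUN5, had -0.45 ± 0.04 (adjusted P=1.51e-05), and Capza3, a sperm actin-capping subunit gene, had -0.50 ± 0.05 (adjusted P=3.74e-05). Fam209, which encodes a partner of DPY19L2, was among the lower genes with -0.58 ± 0.07 (adjusted P=0.000134), and is named here after its value was seen because of that partnership. Between the mutants 12 were lower, led by Ccin (-0.62 ± 0.04, adjusted P=2.05e-06), Hook1 (-0.43 ± 0.03, adjusted P=2.54e-06) and Capza3 (-0.41 ± 0.04, adjusted P=1.13e-05). There, 10 were lower and 1 higher with library size alone, and 8 lower and 1 higher by limma on log2(TPM + 1).

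The paralogues of Dpy19l2 gave 1 call of 3. Dpy19l3 was higher in Kpna6ΔIBB/ΔIBB (0.44 ± 0.09, adjusted P=0.00313), Dpy19l1 had -0.13 ± 0.05 (adjusted P=0.0726) and Dpy19l4 had -0.07 ± 0.07 (adjusted P=0.513). Dpy19l3 was also higher than in Kpna6-/- (0.27 ± 0.08, adjusted P=0.0267). By limma it was called in neither comparison, and the call between the mutants was also lost by DESeq2 and without the first or second Kpna6-/- or the first or the third Kpna6ΔIBB/ΔIBB library.

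**Figure D4:**
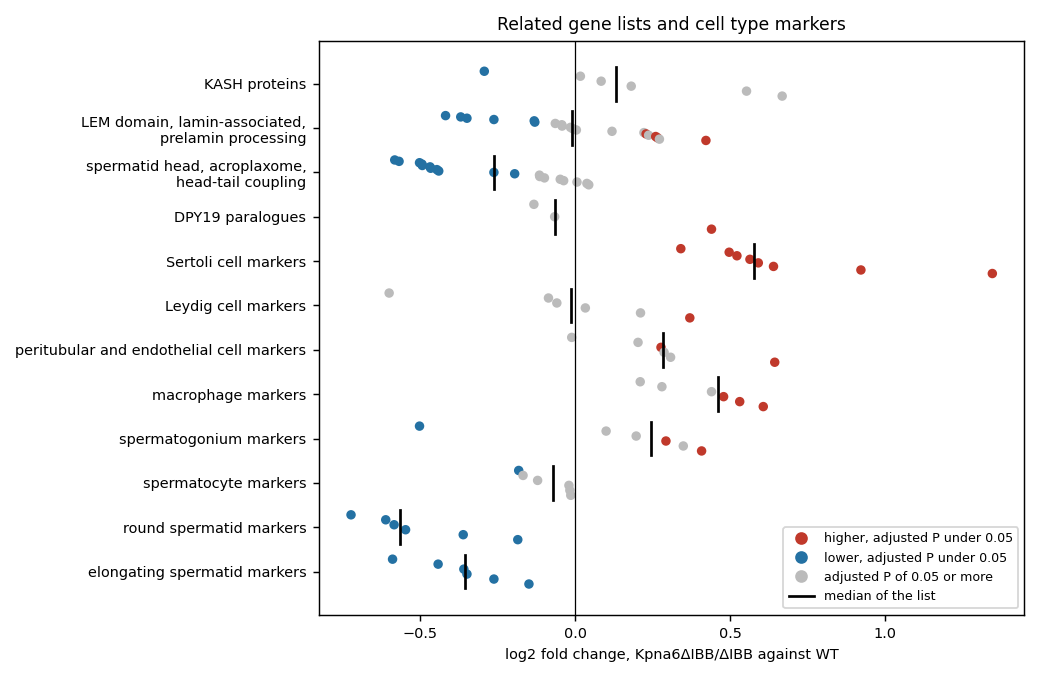
Log2 fold change of Kpna6ΔIBB/ΔIBB against WT (x axis) for each gene of 4 related lists and 8 cell type marker lists (y axis); points are genes, coloured by the edgeR call, and the black line is the median of the list. The spermatid head list has a median of -0.26, the Sertoli cell markers lie to the right of 0 and both spermatid marker lists to the left.

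Markers of cell types moved with the same genotype. In Kpna6ΔIBB/ΔIBB against WT all 6 round spermatid markers and all 6 elongating spermatid markers were lower, with medians of -0.57 and -0.35. The falls of Lmnb2-202, Sun3, Sun5 and Spag4 stand next to these. Dpy19l2 had a log2 fold change of -0.145, and Sun1 had -0.230 where the spermatocyte markers had a median of -0.071. Both of these calls depended on the scaling. By the study's account, transition protein and protamine genes, which are among the elongating spermatid markers, were also reduced in sorted round spermatids of this mutant. All 8 Sertoli cell markers were higher, with a median of 0.58, next to the rise of Sun2, and 3 of 6 macrophage and 2 of 6 peritubular and endothelial markers were higher with none lower. By the study's account, PCR of adult testes gave no significant difference for Rhox5, Wt1, Gata1 or Cldn11, which are among these Sertoli cell markers. The study also counted fewer Sertoli cells per tubule in adult testes of both mutants. The marker values here are shares of each library and do not count cells. Summed round spermatid markers ranged from 1069 to 1141 TPM in WT, from 848 to 909 TPM in Kpna6ΔIBB/ΔIBB and from 1064 to 1098 TPM in Kpna6-/-. Summed Sertoli cell markers ranged from 144 to 162 TPM, from 229 to 263 TPM and from 158 to 175 TPM. Of the spermatocyte markers 1 of 6 was lower and of the Leydig cell markers 1 of 6 was higher. Of the spermatogonium markers 2 were higher and 1 lower. Over all genes tested, 18.9% were lower and 17.7% were higher in this comparison, so a count of 1 of 6 is near that share. In Kpna6-/- against WT 1 of the 50 markers was called, the spermatogonium marker Gfra1, which was lower. Over all genes, 0.712% were lower and 0.889% higher there. The part of these markers in the members' differences was not tested.

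The genes whose pattern over the 9 libraries was most like a member's were found by the root mean square difference of centred log2 CPM over 16710 genes. For Sun5 they were Lyzl6 (0.04) and Lyzl1 (0.05), both lysozyme-like genes, where Sun5 itself varied by 0.26. For Spag4 they were Abhd18 and Tulp2 (0.02 each, against 0.17), for Sun3 Vwa3a and Ttll8 (0.04 each, against 0.28) and for Lmnb2 Dusp13 (0.04) and Diaph3 (0.05, against 0.29). Dpy19l2 lay nearest to Zpbp2 and Vps26a (0.02 each, against 0.07), and Sun1 nearest to Ascc1 and Pcsk4 (0.03 each, against 0.12). Sun2 was nearest to Ppt2 and B4galt1 (0.04 each, against 0.19). Lmna, Lmnb1 and Lbr varied by 0.10, 0.09 and 0.10, and their nearest genes lay at 0.05 (Polr2m and Lyrm2), 0.05 (Ccdc90b and Tmem80) and 0.03 (Fbrs and Ankrd10). No member was among the nearest genes of another.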

How the data were processed

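RNA of 9 whole testes was sequenced as poly(A)-selected paired-end libraries made with a kit that does not mark strand. The authors assigned reads to transcripts of mm10 with kallisto (version 0.45 by the submitters' processing notes, a later version by the study's methods) and deposited for each transcript an estimated count, which is not normalized, and a TPM value, scaled within each library. The transcript release is not given in the sources used here. Of 96626 transcripts, 95301 matched GENCODE M21 by identifier and were summed to 32035 genes. These held at least 99.5% of counts. Of the members with the least counts, Lmna had 516 to 706 and Lmnb1 586 to 691 per library. The p-values weigh a difference against the spread between libraries, 3 of each genotype, and the estimate of that spread also draws on other genes.

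Sums were rounded and tested in R 4.3.3 with edgeR 4.0.16 (filterByExpr, TMM factors, quasi-likelihood test, Benjamini-Hochberg adjustment over all genes or transcripts, threshold 0.05), using the 6 libraries of each pair. The study's own gene test (sleuth), which it combined with a threshold on effect size, was not used here. Numbers of genes called here are therefore not comparable with those of the study. SE is the fold change divided by the root of F, and the intervals use the t distribution. Transcript shares were compared by exact permutation where the mean share lay between 5 and 95%. The error of dividing reads between transcripts of a gene is not in the deposited values, so no transcript test or share includes it. Alternatives were no filter, DESeq2 1.42.0, library size alone, a replicate block, all 9 libraries in 1 fit, limma 3.58.1 on log2(TPM + 1) or log2(TPM + 0.1), and leaving out each library. All 10 members, transcripts that averaged 1 TPM or more in some genotype and, from each other list, up to 3 genes a direction with the smallest adjusted P were named. Syne2, Ccdc155, Fam209, Dpy19l1, Dpy19l4 and the Sertoli cell markers Rhox5, Wt1, Gata1 and Cldn11 were named after their values were seen. Likeness used genes with a mean of at least 1 TPM. The members, lists and rules were chosen with earlier results of these data known. The scripts were tested on simulated data.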

Additional observations from a re-analysis of the deposited data

How the results depend on the processing

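The 4 calls that held under every alternative in both comparisons with Kpna6ΔIBB/ΔIBB were Lmnb2, Sun3, Spag4 and Sun2. Between the mutants 8 members were called, against 5 by limma on log2(TPM + 1) or log2(TPM + 0.1), 4 without a filter on TPM, and 5 to 6 when a library was left out. Lmna, not among the 8, was called higher there by limma on log2(TPM + 1) or log2(TPM + 0.1) and with library size alone. Of the member transcripts, 5 were called in Kpna6ΔIBB/ΔIBB against WT and 14 by DESeq2. Between the mutants 5 were called, against 8 by DESeq2, 3 by limma on log2(TPM + 1) and 3 to 6 when a library was left out. The cause was not tested. Over the 48 genes of the related lists, calls of both directions together stayed within 1.5 times, but the directions did not: 18 lower and 5 higher against WT became 14 and 13 with library size alone and 13 and 7 by limma on log2(TPM + 1), and 18 and 3 between the mutants became 13 and 10, and 11 and 5.

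Signs that turned belonged to members that were not called, with the exception of Dpy19l2 between the mutants, which had 0.04 under each of the 3 limma settings. Lbr in Kpna6ΔIBB/ΔIBB against WT had 0.004 with library size alone. In Kpna6-/- against WT, limma gave -0.012, -0.013 and -0.012 for Lmna and -0.01 for Spag4. Between the mutants Lmnb1 had 0.084 with library size alone and 0.141, 0.153 and 0.141 by limma. When a library was left out, Lmnb1 ranged from -0.043 to 0.109 in Kpna6ΔIBB/ΔIBB against WT and from -0.068 to 0.014 between the mutants. In Kpna6-/- against WT the ranges were -0.034 to 0.081 for Lmna, -0.030 to 0.119 for Lmnb1, -0.061 to 0.047 for Lmnb2, -0.023 to 0.122 for Lbr, -0.060 to 0.031 for Sun1 and -0.043 to 0.072 for Sun2.

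Libraries of the same replicate number did not deviate together in every pair (correlations from -0.043 to 0.106), so the numbers were not taken to pair the animals. With the replicate number as a block, 7, 0 and 8 members were called in the 3 comparisons, 4, 0 and 4 member transcripts, and 25, 0 and 23 genes of the related lists. The block ended the calls of Sun2-202 against WT and of Lmnb2-201 between the mutants. Best matches fell on the own number for 2, 0 and 2 of 3 libraries.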
